A study of Mus musculus with 59 samples.

Results

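*Sohlh1*, *Sohlh2*, *Figla*, *Nobox*, *Zp2*, *Zp3* and *Morc1* are 7 genes of the gonadal germ line, and their transcripts were followed here in single epiblasts that lacked G9a or EZH2. The genes were taken by symbol from 22134 genes with a listed transcript, and each was represented by the transcript with the highest mean count. A transcript that a sample did not list was given a count of 0. Of the 7 genes, 6 were listed in at least 1 epiblast, and no transcript of *Figla* was listed in any of the 14.

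RNA sequencing (RNA-seq) was performed on individual epiblasts at E6.25, the pluripotent tissue of the mouse embryo shortly before gastrulation. In the *Ehmt2* cross, 4 *Ehmt2-/-* epiblasts, which lack the gene for the H3K9 dimethyltransferase G9a, were compared with 4 controls. In the *Ezh2* cross, 3 *Ezh2-/-* epiblasts, which lack the gene for the H3K27 methyltransferase EZH2, were compared with 3 controls. All 14 were untreated, of mixed background, and came from *Ehmt2+/-* or *Ezh2+/-* intercrosses of 4 and 3 litters, respectively. The labels give the controls as wild type (G9a+/+ and Ezh+/+), whereas the study's methods also admit heterozygous controls, so a control may carry 1 functional copy. The *Ehmt2* allele derives from a conditional one, and the *Ehmt2+/-* line had been bred to the ΔPE-Pou5f1-EGFP reporter. The parents were heterozygous, so extraembryonic tissue of a knockout embryo carried the same genotype, and each value comes from 750 pg of amplified RNA of 1 epiblast.

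Germ cells that have entered the gonad switch on a set of genes that stay silent in the epiblast. SOHLH1 and SOHLH2 are basic helix-loop-helix (bHLH) transcription factors of spermatogonia and of oocytes in primordial follicles. FIGLA, another bHLH factor, and NOBOX, a homeodomain protein, act in early oocytes, and FIGLA binds E-boxes in the promoters of the zona pellucida genes. ZP2 and ZP3 are glycoproteins of the zona pellucida, the coat that surrounds the oocyte and binds sperm. MORC1 is a GHKL-type ATPase needed for male meiosis and for transposon silencing in the male germ line.

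Promoter sequence from RefSeq (GRCm38.p6) was at hand for 5 of the 7 genes, namely *Sohlh1*, *Sohlh2*, *Figla*, *Nobox* and *Zp3*. Those of *Sohlh1*, *Sohlh2* and *Zp3* are shown, 5′ to 3′ on the strand of the gene and ending at the more upstream of the RefSeq and GENCODE starts, because they belong to the bHLH pair and to a zona pellucida gene. Capitals mark E-boxes, CANNTG, the core that bHLH factors bind; this core reads the same on both strands. The *Sohlh1* sequence lies at chr2:25847249-25847498 (minus strand), that of *Sohlh2* at chr3:55181794-55182027 (plus strand) and that of *Zp3* at chr5:135979855-135980098 (plus strand).
Sohlh1: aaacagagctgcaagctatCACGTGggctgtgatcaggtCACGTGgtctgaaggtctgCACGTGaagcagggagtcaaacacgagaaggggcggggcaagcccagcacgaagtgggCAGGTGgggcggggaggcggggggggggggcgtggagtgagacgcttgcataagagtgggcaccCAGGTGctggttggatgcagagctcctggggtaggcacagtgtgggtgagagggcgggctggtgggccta
Sohlh2: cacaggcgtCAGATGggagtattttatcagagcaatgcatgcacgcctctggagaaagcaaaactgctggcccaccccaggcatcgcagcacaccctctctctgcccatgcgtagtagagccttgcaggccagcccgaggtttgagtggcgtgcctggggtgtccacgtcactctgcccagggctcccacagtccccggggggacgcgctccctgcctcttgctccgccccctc
Zp3: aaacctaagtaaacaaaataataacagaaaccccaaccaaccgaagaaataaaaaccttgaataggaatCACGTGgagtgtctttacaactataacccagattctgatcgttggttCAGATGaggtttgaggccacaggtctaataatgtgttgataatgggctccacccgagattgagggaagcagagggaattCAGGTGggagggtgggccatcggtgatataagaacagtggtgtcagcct
In the 250 bases before the RefSeq start, *Sohlh1* had 5 E-boxes, *Zp3* had 3, *Nobox* and *Figla* had 2 each, and *Sohlh2* had 1. Among 32851 RefSeq promoter windows of the same length, 66.2% held at least 1 E-box and 1.15% held 5 or more. The E-box CACGTG, one form of CANNTG, occurred 3 times before *Sohlh1* and once before *Zp3*, and 0.0609% of all windows held 3 or more copies. CpG dinucleotides numbered 14 before *Sohlh2* and *Figla*, 11 before *Sohlh1* and *Nobox*, and 5 before *Zp3*, around a median of 6 over all windows. These are descriptions of letters only, and no binding or methylation was measured in the files used here.

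The libraries differed in depth and 1 pair stood apart. Counts summed over all transcripts ranged from 32431296 to 68464895 in the *Ehmt2* cross and from 30161171 to 37500157 in the *Ezh2* cross; isoforms share reads, and sums over 1 transcript per gene were between 13225267 and 30138403. Replicate 4 of the *Ehmt2* cross differed more from the other replicates of its genotype (chi-square per degree of freedom 138 to 184) than these differed among themselves (16.0 to 29.9). The study's methods describe a comparison of every knockout with all controls, whereas the comparisons it tabulates set knockout 4 against control 4 alone; the model of the *Ehmt2* cross had a term for these sets (replicates 1 to 3, and replicate 4), without which *Sohlh2* was not called. Levels are given as CPM, counts relative to the library total scaled by edgeR's TMM factors. *Ehmt2* was lower in every *Ehmt2-/-* epiblast than in every control (3.22 to 9.46 against 10.3 to 32.8 CPM), and *Ezh2* was lower in every *Ezh2-/-* epiblast than in every control (11.8 to 16.6 against 53.4 to 112 CPM). All 8 epiblast markers examined, *Pou5f1* and *Nanog* among them, had counts in all 14 libraries.

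*Sohlh2* rose in *Ehmt2-/-* epiblasts. The transcript (ENSMUST00000029369, chromosome 3 from 55182028 to 55209957, GRCm38) reached 91, 7, 41 and 11 counts in controls 1 to 4, which is 2.23, 0.148, 1.08 and 0.198 CPM. Knockouts 1 to 4 held 446, 177, 274 and 334 counts, which is 12.5, 5.04, 7.00 and 5.39 CPM. Every knockout was above every control, and the control mean of 0.912 ± 0.975 CPM stood against a knockout mean of 7.48 ± 3.44 CPM (SD, n = 4 per genotype). Transcripts were tested with edgeR's quasi-likelihood test, and a call needed both a log2 fold change beyond 1.4 and an adjusted p-value under 0.05. For *Sohlh2* the log2 fold change reached 3.23 (edgeR adjusted p = 0.0486 over 49872 transcripts, standard error 0.65). The call rested on a narrow margin. It was kept without control 1 (adjusted p = 0.0373) and lost when any of the other 7 epiblasts was left out (adjusted p = 0.0694 to 0.149), when replicate 4 was left out of both groups (2.84, adjusted p = 0.0729) and without the term for the sets (3.05, adjusted p = 0.252), and the log2 fold change was at least 2.83 in each of these fits. From these counts of whole epiblasts, more cells with the transcript and more transcript per cell cannot be told apart. The study also measured *Sohlh2* by quantitative PCR in single cells of *Ehmt2+/+* and *Ehmt2-/-* epiblasts, and those values were not used here.

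*Sohlh2* was at 0.783, 1.51 and 0.937 CPM in *Ezh2* controls 1 to 3, and the 3 knockouts showed 1.58, 2.94 and 1.44 CPM. The groups overlapped, since knockout 3 lay below control 2. The log2 fold change was 0.88 (standard error 0.48, edgeR adjusted p = 0.782) and the transcript was not called. The fold change in the *Ehmt2* cross exceeded that in the *Ezh2* cross by 2.35 on the log2 scale (standard error 0.89), which did not pass adjustment over 55248 transcripts (edgeR interaction, adjusted p = 0.483).

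Its partner *Sohlh1* (ENSMUST00000076989, chromosome 2 from 25842995 to 25847248) was near the limit of counting in nearly all epiblasts. Controls 1 to 4 of the *Ehmt2* cross had 0, 0, 2 and 0 counts and knockouts 1 to 4 had 1, 2, 0 and 40. Only knockout 4 was well above the controls, at 0.645 CPM, which is at least 11.9-fold above control 4 when 3 counts are taken as the floor of that library. *Sohlh1* did not pass edgeR's filter on low counts and has no adjusted p-value in either cross. The controls of the *Ezh2* cross had 10, 0 and 0 counts and the knockouts 5, 2 and 0, so the groups overlapped. The mean level differed by 0.32 on the log2(CPM + 0.5) scale between *Ehmt2-/-* epiblasts and controls (two-sided exact permutation test, p = 0.257) and by −0.04 in the *Ezh2* cross (exact p = 1).

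**Figure D1:**
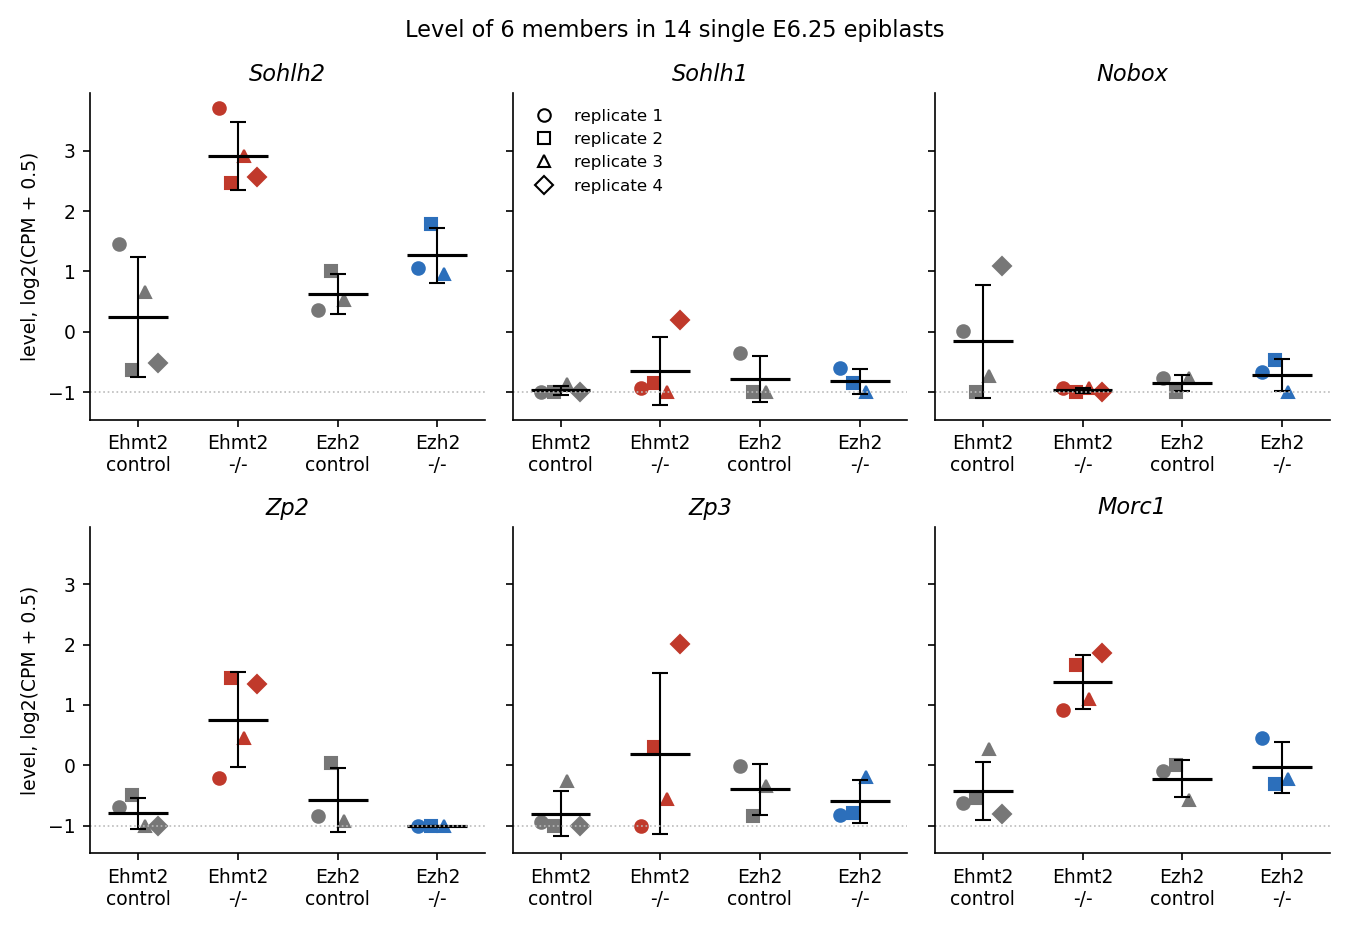
Level of the 6 listed members, as log2(CPM + 0.5), in each of 14 epiblasts (points, with the shape giving the replicate), with the mean (horizontal line) and SD (bar) of each group; the dotted line at −1 marks 0 counts. Every *Ehmt2-/-* epiblast lies above every *Ehmt2* control for *Sohlh2*, *Zp2* and *Morc1*, *Zp3* and *Sohlh1* are high mainly in knockout 4, and the 3 *Ezh2-/-* epiblasts sit at 0 counts for *Zp2*.

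The oocyte homeobox gene *Nobox* went the other way in the counts, but too few reads were present for a test across transcripts. The transcript (ENSMUST00000031749, chromosome 6 from 43303674 to 43309554) had 21, 0, 4 and 90 counts in *Ehmt2* controls 1 to 4 and 1, 0, 1 and 0 in knockouts 1 to 4. Control 2 had as few counts as the knockouts, so the groups overlapped, and the difference of mean log2(CPM + 0.5) was −0.81 (two-sided exact permutation test, p = 0.143). Without replicate 4 the difference was −0.38. Fitted without the filter, its log2 fold change was −4.60 (standard error 1.52) and was not called (edgeR, adjusted p = 0.216). The second listed isoform had 18, 0, 1 and 57 counts in controls and 0, 0, 1 and 0 in knockouts, which may be reads shared with the first. *Nobox* had 3, 0 and 3 counts in *Ezh2* controls and 4, 8 and 0 in *Ezh2-/-* epiblasts; the gene lies 4.22 Mb from *Ezh2* on the same chromosome.

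Of the zona pellucida genes, *Zp2* was higher in every *Ehmt2-/-* epiblast than in every control, although it did not pass the main test. The transcript (ENSMUST00000033207, chromosome 7 from 120132340 to 120145290) reached 5, 10, 0 and 0 counts in controls 1 to 4, which is 0.122, 0.212, 0 and 0 CPM. Knockouts 1 to 4 held 13, 78, 34 and 127 counts, which is 0.364, 2.22, 0.868 and 2.05 CPM. The log2 fold change was 4.06 (standard error 1.09, edgeR adjusted p = 0.145); DESeq2 called it at 4.18 (adjusted p = 0.00261). No control exceeded 10 counts, so *Zp2* entered the test through its knockout libraries. Without replicate 4, the log2 fold change was 3.29 (edgeR adjusted p = 0.180), and within replicate 4 the knockout was at least 37.9-fold above the control with 3 counts as the floor.

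*Zp2* had 2, 18 and 1 counts in *Ezh2* controls 1 to 3 and 0 counts in each of the 3 knockouts. Every knockout was thus below every control, as it was for 6.61% of transcripts tested in that cross, and for 6.46% every knockout was above. The control mean was 0.206 CPM, at least 2.37-fold above the floor of 3 counts per knockout library, and control 2 supplied 18 of the 21 counts. A two-sided exact permutation test gave p = 0.1, the smallest value that 3 against 3 epiblasts can reach. The fitted difference between the 2 crosses was 10.1 on the log2 scale (standard error 2.44, edgeR interaction, adjusted p = 0.232); with a group at 0 its size depends on the prior count and is not a bound.

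*Zp3* was high in 1 knockout and variable in the rest. The transcript (ENSMUST00000005073, chromosome 5 from 135980099 to 135988624) was at 0.0245, 0, 0.341 and 0 CPM in *Ehmt2* controls 1 to 4, whereas knockouts 1 to 4 showed 0, 0.741, 0.179 and 3.53 CPM. Knockout 4 held 219 of the 252 knockout counts and was at least 65.3-fold above control 4, with 3 counts as the floor, while knockout 1 had no count and lay below control 3. *Zp3* missed the filter in this cross, and the difference of mean log2(CPM + 0.5) was 0.99 (two-sided exact permutation test, p = 0.257), or 0.31 without replicate 4. *Ezh2* controls 1 to 3 showed 0.493, 0.0591 and 0.293 CPM and the *Ezh2-/-* epiblasts 0.0644, 0.0831 and 0.381 CPM. The groups overlapped, with a log2 fold change of −0.65 (standard error 1.00, edgeR adjusted p = 0.943) that became 0.01 without control 1. A second listed isoform, annotated as subject to nonsense-mediated decay, had its highest count, 46, in *Ehmt2* knockout 4. Isoforms share reads, so that count may repeat reads of the first transcript.

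*Morc1* was higher in all 4 *Ehmt2-/-* epiblasts than in any control and missed the threshold of the main test. The transcript (ENSMUST00000023330, chromosome 16 from 48431237 to 48630900) reached 6, 9, 27 and 4 counts in controls 1 to 4, which is 0.147, 0.190, 0.708 and 0.0721 CPM. Knockouts 1 to 4 held 50, 94, 64 and 193 counts, which is 1.399, 2.68, 1.63 and 3.11 CPM. The log2 fold change was 3.06 (standard error 0.70, edgeR adjusted p = 0.0854). It was called by DESeq2 (3.08, adjusted p = 0.000486), by edgeR without the filter on low counts (3.05, adjusted p = 0.0393) and by edgeR without control 3, the control with the highest level (3.99, adjusted p = 0.0377). Without replicate 4 the log2 fold change was 2.45 (adjusted p = 0.119).

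*Morc1* was at 0.435, 0.502 and 0.176 CPM in *Ezh2* controls 1 to 3, and the *Ezh2-/-* epiblasts showed 0.869, 0.305 and 0.354 CPM. Only knockout 1 lay above every control, the log2 fold change was 0.45 (standard error 0.75, edgeR adjusted p = 0.947), and without knockout 1 it was −0.17. The fold changes of the 2 crosses differed by 2.62 on the log2 scale (standard error 1.03), which did not pass adjustment (edgeR interaction, adjusted p = 0.513).

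To set the 7 genes beside the transcriptome, they were counted under each rule. In the *Ehmt2* cross edgeR called 1 member, *Sohlh2*, as higher and 220 transcripts in all, or 0.441% of those tested; 2 members, *Zp2* and *Morc1*, were tested and not called, 3 were under the filter and 1 was not listed. DESeq2 called 3 members (*Sohlh2*, *Zp2* and *Morc1*) against 1.09% of transcripts. For the same 3 genes every knockout lay above every control, as it did for 2.56% of tested transcripts; for each, the two-sided exact permutation test gave p = 0.0286, the smallest that 4 against 4 epiblasts allow, unadjusted, among 6 listed members. No member was called lower, against 0.0581% of transcripts by edgeR and 0.385% by DESeq2, and no member had every knockout below every control, against 2.53%. *Zp2* and *Morc1* had few counts in controls, and genes that enter a test through the knockouts alone had to lean upward, so these shares are given as a description.

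A second rule was modelled on the study's methods but differed from them in its controls and its floor. Knockout 4 was set against control 4 alone, and the floor was a normalised count not scaled for transcript length, so a transcript that meets it need not meet the study's floor. With every knockout set against all 4 controls, 3 members again met it. It required a log2 fold change beyond 1.4 in each knockout, a combined p-value under 0.05 and 5 or more normalised counts throughout the higher group. *Sohlh2*, *Zp2* and *Morc1* met it as higher in the *Ehmt2* cross, as did 0.565% of all transcripts tested, and 0 members met it as lower, against 0.192%. The log2 fold changes of knockouts 1 to 4 were 3.45, 2.14, 2.61 and 4.74 for *Sohlh2* and 2.02, 2.95, 2.24 and 5.38 for *Morc1*, and those of knockouts 1 to 3 were 1.64, 4.24 and 2.89 for *Zp2*, whose control 4 had no count. *Zp2* no longer met the rule without control 3. The comparisons share controls, so the combined p-values are nominal and are not printed.

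**Figure D2:**
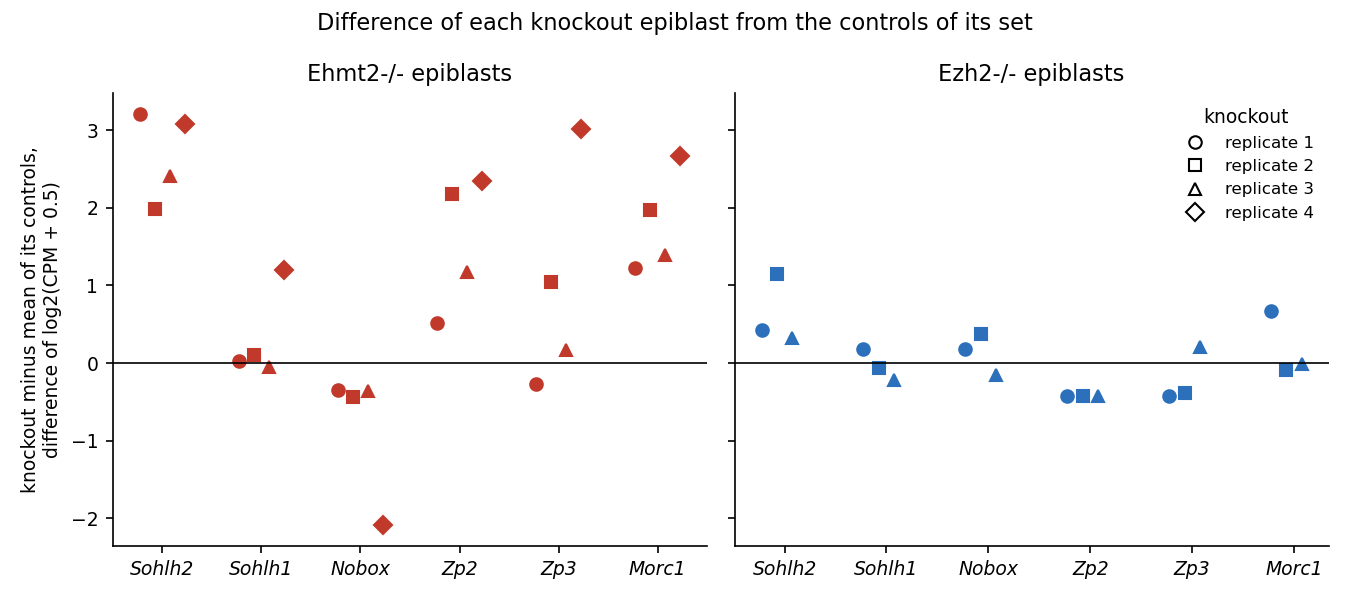
Difference of each knockout epiblast (points, shape giving the replicate) from the mean of its controls on the log2(CPM + 0.5) scale, for 6 members in the *Ehmt2* cross (left) and the *Ezh2* cross (right); knockouts 1 to 3 are set against controls 1 to 3, and *Ehmt2* knockout 4 against control 4. All 4 *Ehmt2-/-* epiblasts lie above 0 for *Sohlh2*, *Zp2* and *Morc1* and below 0 for *Nobox*, and the *Ezh2-/-* epiblasts stay within 1.15 of 0.

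EdgeR called 0 members in the *Ezh2* cross. It called 0 transcripts (0%) as higher and 0.0118% as lower; 758 transcripts were higher and 190 lower beyond the fold threshold at an unadjusted p under 0.05, and no member was among them. DESeq2 called 0 members, against 0.301% of transcripts as higher and 0.0492% as lower. The per-embryo rule was met by 0 members, against 0.57% of transcripts as higher and 0.146% as lower. The interaction between the crosses was called for 0.0561% of transcripts and for 0 of the 4 members tested.

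Compared per kilobase of exon, so that genes of different length can be set side by side, the member levels in *Ehmt2-/-* epiblasts were led by *Sohlh2*. Its level was 2.13 to 5.28 CPM per kb over the 4 knockouts. *Zp3* ranged from 0 to 2.67, *Morc1* from 0.459 to 1.02, *Zp2* from 0.164 to 1.00, *Sohlh1* from 0 to 0.501 and *Nobox* from 0 to 0.0148 CPM per kb. The ranges of *Morc1*, *Zp2*, *Zp3* and *Sohlh1* overlapped one another, and only *Zp3* in knockout 4 entered the range of *Sohlh2*. In controls of the same cross *Sohlh2* was at 0.0626 to 0.942 and *Nobox* at 0 to 0.858 CPM per kb, and these ranges overlapped.

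Over the 14 epiblasts, the levels of the 3 tested members varied together to different degrees. Pearson's r of log2(CPM + 0.5) was 0.80 between *Morc1* and *Zp2*, 0.77 between *Sohlh2* and *Morc1* and 0.59 between *Sohlh2* and *Zp2*; the points share the genotype groups and the depth of their libraries. Among 14740 genes, those most like *Sohlh2* were *Fos* (0.92), an immediate-early transcription factor gene, *Zfp980* (0.91) and *Gm17067* (0.90). Those most like *Morc1* were *Btg2* (0.93), an antiproliferative gene, *Cd3e* (0.92), a gene of the CD3 complex of T cells, and *Pdha2* (0.91), the testis form of a pyruvate dehydrogenase subunit. Those most like *Zp2* were *Ms4a7* (0.91), *5330438D12Rik* (0.89) and *1700029P11Rik* (0.88).

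None of the 7 further oocyte genes tested in the *Ehmt2* cross was called. For 2 of those tested every knockout lay above every control, as it did for 2.56% of all transcripts tested there. Of 25 further oocyte genes, 20 were listed, 7 passed the filter in the *Ehmt2* cross and none was called by edgeR or DESeq2, with a median log2 fold change of 0.26 beside −0.01 over all transcripts tested. The 2 with the smallest p-values were *Foxo3*, which restrains the activation of primordial follicles, and *Ybx2*, a germ cell RNA-binding protein. *Foxo3* ranged from 18.8 to 30.6 CPM in controls and from 34.7 to 49.7 CPM in knockouts, without overlap (log2 fold change 0.76, standard error 0.18, edgeR adjusted p = 0.0979). *Ybx2* ranged from 1.89 to 6.60 CPM in controls and from 0.70996 to 2.08 CPM in knockouts (−1.17, standard error 0.48, edgeR adjusted p = 0.364). *Nlrp14*, an oocyte gene picked out after its values were seen, ranged from 0 to 0.416 CPM in controls and from 0.448 to 1.31 CPM in knockouts (2.64, standard error 1.15, edgeR adjusted p = 0.398). This gene was under the filter in the *Ezh2* cross, at 0.0290 to 0.0591 CPM in controls and 0.225 to 1.25 CPM in knockouts. There too every knockout lay above every control, as for 6.46% of transcripts tested in that cross. Of the 25, 6 were tested in the *Ezh2* cross and none was called by either tool (median −0.14 beside 0.01), the smallest p-values being those of *Dppa3* (1.05, edgeR adjusted p = 0.691) and *Nr6a1* (−0.34, adjusted p = 0.695).

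Of 16 regulators of spermatogonia and gonadal germ cells, 10 passed the filter in the *Ehmt2* cross and edgeR called none (median log2 fold change −0.12). *Ddx4*, the germ cell RNA helicase, ranged from 2.13 to 5.73 CPM in controls and from 7.67 to 26.9 CPM in knockouts, without overlap (1.44, standard error 0.35, edgeR adjusted p = 0.111). *Kit*, the receptor of migrating germ cells and of differentiating spermatogonia, ranged from 3.50 to 5.33 CPM in controls and from 0.588 to 2.60 CPM in knockouts, again without overlap (−1.60, standard error 0.40, edgeR adjusted p = 0.120). DESeq2 called 1 gene of the list, *Ddx4*, as higher (adjusted p = 0.00196) and 1, *Kit*, as lower (adjusted p = 0.00745). The *Ezh2* cross had 11 tested and none was called by either tool (median −0.03). *Ddx4* there had 7.06 to 8.42 CPM in controls and 11.1 to 14.995 CPM in knockouts (0.71, edgeR adjusted p = 0.565), and *Dmrt1*, a transcription factor gene of the gonad, had 0.0591 to 0.319 and 0.194 to 1.29 CPM (2.14, adjusted p = 0.700).

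The partners and inhibitors of bHLH factors and the other MORC genes were also examined. Of 7 bHLH partner and inhibitor genes, 6 were tested in the *Ehmt2* cross and 1, *Id2*, was called higher (median −0.01); the product of *Id2* binds bHLH proteins and keeps them from DNA. *Id2* ranged from 1.81 to 3.47 CPM in controls and from 9.70 to 46.3 CPM in knockouts (log2 fold change 2.66, standard error 0.50, edgeR adjusted p = 0.0397). None of the 6 was called by either tool in the *Ezh2* cross, where *Id3* (−0.50, edgeR adjusted p = 0.531) and *Tcf3*, a common bHLH partner (−0.38, adjusted p = 0.576), had the smallest p-values. Of 4 other MORC genes, 3 were tested in the *Ehmt2* cross and 1, *Morc4*, was called higher (4.47, standard error 0.71, edgeR adjusted p = 0.0163; median 0.21), with 0.343 to 5.67 CPM in controls and 1.08 to 236 CPM in knockouts. These ranges overlapped. Neither tool called one in the *Ezh2* cross, with *Morc4* at 2.33 (adjusted p = 0.613) and *Morc3* at −0.20 (adjusted p = 0.853).

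**Figure D3:**
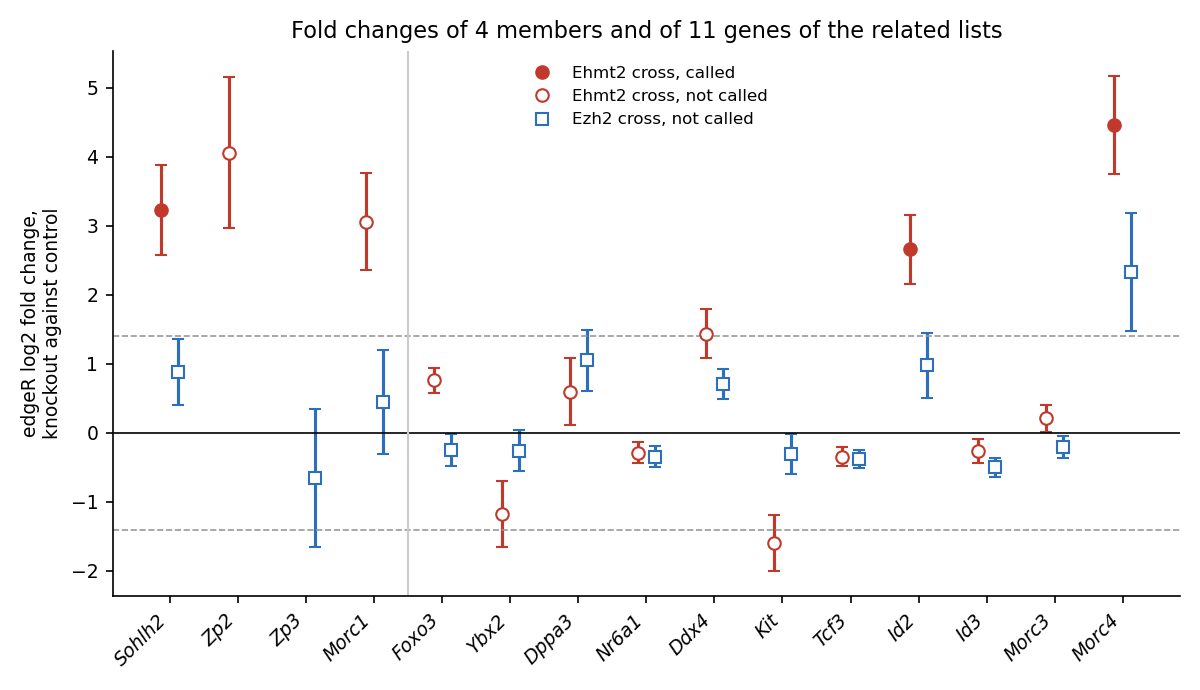
edgeR log2 fold change of knockout against control (points) with its standard error (bars) for 4 members, left of the grey line, and 11 genes of the related lists; a filled point was called, an open one was not, and the dashed lines mark a log2 fold change of 1.4 in either direction. *Sohlh2*, *Id2* and *Morc4* are called in the *Ehmt2* cross and no gene shown is called in the *Ezh2* cross; *Zp2* has no *Ezh2* value and *Zp3* no *Ehmt2* value, since they were under the filter there.

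Markers of neighbouring tissue also differed between genotypes. The summed level of 10 extraembryonic ectoderm markers amounted to 26.0, 128, 67.7 and 42.7 CPM in controls 1 to 4, whereas knockouts 1 to 4 showed 346, 113, 131 and 22.2 CPM. Most of the control sums was *Eomes* (mean 58.0 CPM, beside 60.7 CPM in knockouts), which was not called (−0.13, edgeR adjusted p = 0.947). Of the 10 markers edgeR called 4 as higher, namely *Elf5* (6.03, edgeR adjusted p = 0.0114), *Tfap2c* (3.80, adjusted p = 0.0120), *Esrrb* (5.33, adjusted p = 0.00311) and *Bmp4* (3.20, adjusted p = 0.0167). DESeq2 called 5, these and *Cdx2* (3.80, DESeq2 adjusted p = 0.00407). Knockout 4 had the lowest sum of the 8 epiblasts, and *Elf5*, *Cdx2*, *Tfap2c* and *Hand1* were at 0 counts there. In control 4, *Elf5*, *Cdx2* and *Hand1* were at 0 counts as well. *Bmp4* and *Esrrb* were higher in every knockout, knockout 4 included, than in every control. *Bmp4* was at 4.23 CPM or more in knockouts and at most 2.496 CPM in controls. *Esrrb* was at 1.08 CPM or more in knockouts and at most 0.551 CPM in controls. Of the 10 markers, only these 2 had every knockout above every control. The summed level of the members was 14.7 CPM in knockout 4, the highest of all. It was 14.3, 10.7 and 9.70 CPM in *Ehmt2-/-* epiblasts 1 to 3, whereas controls 1 to 4 reached 3.04, 0.550, 2.28 and 1.89 CPM. *Sohlh2* was at 12.5 CPM in knockout 1 and at 5.39 CPM in knockout 4, where *Zp3* gave 3.53 CPM of the sum. The part of the extraembryonic ectoderm markers in the members' result was not tested. In edgeR no extraembryonic ectoderm marker was called in the *Ezh2* cross, the smallest p-values being those of *Bmp4* (2.09, edgeR adjusted p = 0.276) and *Plet1* (2.41, adjusted p = 0.401). DESeq2 called both as higher there (*Bmp4* 2.10, DESeq2 adjusted p = 0.000453; *Plet1* 2.42, adjusted p = 0.00465), and *Esrrb*, *Hand1* and *Plet1* met the per-embryo rule.

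Primordial germ cell markers and epiblast markers were summed in the same way. The sum of 8 primordial germ cell markers was 15.7 to 27.4 CPM in *Ehmt2* controls and 37.0 to 52.2 CPM in knockouts, and it was 23.6 to 26.0 and 39.2 to 48.2 CPM in the *Ezh2* cross, in which the members' sum overlapped between groups (1.52 to 2.60 and 2.18 to 3.60 CPM). *Ifitm3*, *Ddx4* and *Tfap2c* averaged 12.0, 4.30 and 0.685 CPM in *Ehmt2* controls and 15.2, 13.4 and 10.3 CPM in knockouts. Of the 8 markers 6 were tested in the *Ehmt2* cross, where edgeR called 1, *Tfap2c*, shared with the extraembryonic ectoderm list. DESeq2 called 2, *Tfap2c* and *Ddx4* (1.44, DESeq2 adjusted p = 0.00196). *Nanos3* was at 0 counts in all 4 *Ehmt2-/-* epiblasts and in control 2. *Prdm14* was at 0 counts in knockouts 1, 3 and 4 and in controls 1, 3 and 4. None of the 6 tested was called by either tool in the *Ezh2* cross, with *Ddx4* as above and *Ifitm3* at 0.60 (edgeR adjusted p = 0.574). Every knockout lay above every control for 3 of those 6, as for 6.46% of transcripts tested in that cross. The same held for 1 of the 6 tested in the *Ehmt2* cross, beside 2.56% of transcripts. The sum of the epiblast markers was 2384 to 2732 CPM in *Ehmt2* controls and 1419 to 2126 CPM in knockouts, most of it *Dnmt3b* (means 1748 and 1239 CPM). Neither tool called any, in either cross, and the smallest p-values were those of *Fgf5* (−0.70, edgeR adjusted p = 0.0548) and *Dnmt3b* (−0.50, adjusted p = 0.0935). In DESeq2, *Fgf5* (adjusted p = 0.000801), *Dnmt3b* (0.0166) and *Pou5f1* (−0.47, adjusted p = 0.0290) passed the p-value threshold there but not that of 1.4 on the fold change. For the *Ezh2* cross *Otx2* (−0.33, edgeR adjusted p = 0.689) and *Dnmt3b* (−0.23, adjusted p = 0.767) had the smallest. The part of either list in the result for the members was not tested.

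The remaining marker lists overlapped between genotypes. The 12 visceral endoderm markers summed to 9.60 to 53.0 CPM in *Ehmt2* controls and to 8.23 to 61.4 CPM in knockouts. *Ttr*, *Sox17*, *Hnf4a*, *Gata6* and *Apoa4* were at 0 counts in knockout 4 and in control 4, as was *Amn* in knockout 4 and *Afp* in control 4. The 7 maternal decidua and blood markers summed to 2.09 to 34.0 and to 4.31 to 84.5 CPM. The haemoglobin gene *Hbb-bt* was at 0 counts in all 4 knockouts and in controls 2, 3 and 4. In the *Ezh2* cross, control 2 (543 CPM) and knockout 1 (1172 CPM) stood apart in visceral endoderm markers from the other 4 epiblasts (29.7 to 47.4 CPM), whereas their member sums were 2.60 and 2.80 CPM. Neither tool called a gene of either list in either cross. In the *Ehmt2* cross *Gata4* (−1.15, edgeR adjusted p = 0.571), *Apoa1* (−0.77, adjusted p = 0.577), *Cryab* (1.62, adjusted p = 0.415) and *Des* (0.85, adjusted p = 0.509) had the smallest p-values of their lists, and in the *Ezh2* cross *Foxa2* (1.95, adjusted p = 0.794), *Gata4* (1.55, adjusted p = 0.848), *Cryab* (−0.77, adjusted p = 0.946) and *Prl8a2* (0.74, adjusted p = 0.951) did.

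**Figure D4:**
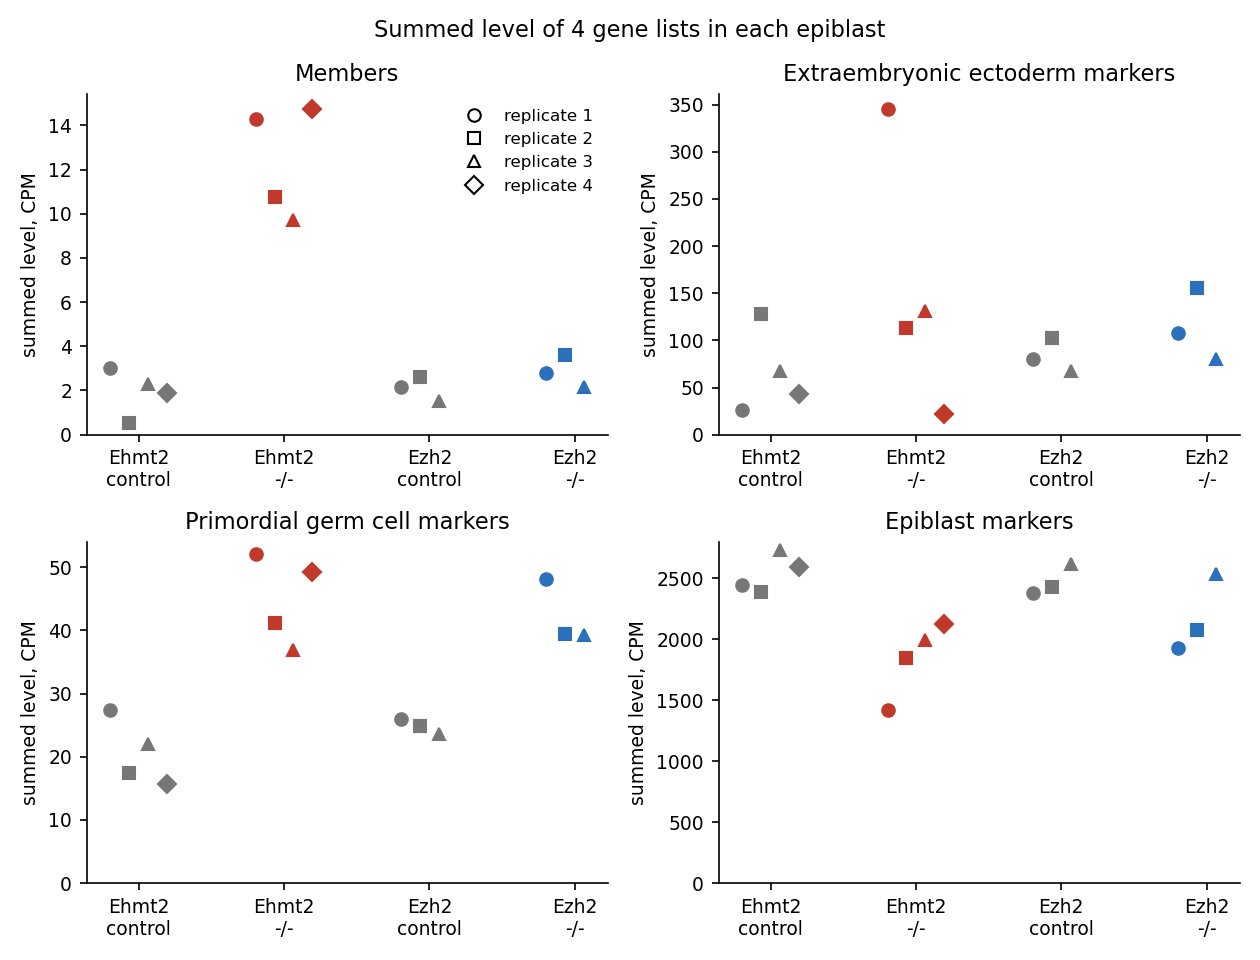
Summed level in CPM of the members and of 3 marker lists in each epiblast (points, shape giving the replicate); each axis starts at 0. *Ehmt2* knockout 4 (diamond) has 14.7 CPM of the members and 22.2 CPM of extraembryonic ectoderm markers, and the members' sums of *Ehmt2-/-* epiblasts (9.70 to 14.7 CPM) lie above those of all other groups. The extraembryonic ectoderm sums include *Eomes*, with a mean of 58.0 CPM in *Ehmt2* controls and 60.7 CPM in *Ehmt2-/-* epiblasts.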

How the data were processed

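Gene counts were the values that the authors deposited for each of 14 single E6.25 epiblasts, per Ensembl transcript and without normalisation. The authors trimmed reads to 40 nt, aligned them with TopHat2 to GRCm38/mm10 and counted them with HTSeq-count; whether counting used strand is not given in the sources used here. Rows of unaligned reads in control 4 (12.6% of its total) and knockout 4 (13.3%) of the *Ehmt2* cross were left out. Of 72515 transcripts, 70021 (96.6%) matched GENCODE vM21 on GRCm38; all calls were made over all transcripts.

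Each cross was fitted by itself with edgeR 4.0.16 in R 4.3.3 (TMM, filterByExpr by genotype, glmQLFit, glmQLFTest, Benjamini-Hochberg), with DESeq2 1.42.0 (Wald test) as an alternative; code was tested on simulated data. Replicate differences exceeded sampling noise in every group (chi-square per degree of freedom at least 16.0). Labels do not say which epiblasts shared a litter. The members and lists were chosen with earlier results of these data known; of each list, the genes called, or otherwise the 2 with the smallest p-values, were named, and for each tested member the 3 genes most correlated with it (mean CPM of at least 1). Floors of 3 counts cover counting error only.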

Additional observations from a re-analysis of the deposited data

Results flagged for a closer look

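Within the groups of 4 *Ehmt2* epiblasts, Dixon's ratio (the gap of an extreme sample to its neighbour over the range of the group) was computed on log2(CPM + 0.5). It was computed for 12 combinations of member and group, and 3 exceeded the critical value for 4 samples. That value assumes normally distributed levels, and several groups hold samples tied at 0 counts, so no chance rate can be given. With 3 samples at 0 counts the ratio is 1.0 whatever the other count. *Sohlh1* in knockout 4 stood apart, at 40 counts and 0.645 CPM (ratio 0.870). *Sohlh1* in control 3 had a ratio of 1.0 from only 2 counts, the other controls having 0. *Zp3* in control 3 stood apart at 13 counts and 0.341 CPM (ratio 0.908). The same epiblast, knockout 4, had 219 counts of *Zp3*.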

How the results depend on the processing

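Limits. The member counts are low, 3 of 6 listed members could not be tested in the *Ehmt2* cross, and the replicates are single embryos. The number of members called in the *Ehmt2* cross was 1, and 3 with DESeq2, 2 without the filter on low counts, 0 without the term for the sets, 0 with replicates 1 to 3 only and 0 to 1 when 1 epiblast was left out. The log2 fold change of *Sohlh2* was 2.83 to 4.02 on leaving out 1 epiblast, 3.05 without the set term and 2.84 with replicates 1 to 3 only, and the call was lost in the last 2 settings and in 7 of the 8 fits that left out 1 epiblast; the cause was not tested, beyond the fewer samples. *Morc1* became called with DESeq2 (3.08), without the filter (3.05) and without control 3 (range over epiblasts left out 2.45 to 3.99), and *Zp2* with DESeq2 (4.18; range 3.29 to 5.04). Within replicate 4, *Zp2* differed by 2.35 on the log2(CPM + 0.5) scale, another scale than the fold change of 4.06. No alternative called a member in the *Ezh2* cross, and leaving out 1 epiblast moved *Zp3* from −1.88 to 0.0098 and *Morc1* from −0.17 to 0.73. The per-embryo rule was met by 2 to 3 members in the *Ehmt2* cross and by 0 in the *Ezh2* cross when 1 epiblast was left out, an alternative chosen after seeing the data; control 4 of the *Ehmt2* cross could not be left out, being the only control of its set.

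Under the replicate block, the *Ehmt2* cross again had 1 member called, *Sohlh2* (3.60, edgeR adjusted p = 0.0295), and the *Ezh2* cross 0. Whether the numbers pair the samples was not settled by the measure used. Deviations of same-numbered epiblasts correlated at 0.05, 0.12, 0.19 and 0.38 in the *Ehmt2* cross (mean 0.18, beside −0.05 for other numbers). In the *Ezh2* cross they correlated at 0.08, −0.16 and 0.19 (mean 0.04, beside −0.02 for other numbers). In the 2 crosses, 4 of 8 and 2 of 6 epiblasts correlated best with their own number. Over all transcripts, the 220 higher and 29 lower calls of the *Ehmt2* cross became 99 and 6 with the block, 51 and 1 without the set term, 395 and 65 without the filter, 544 and 192 with DESeq2, 391 and 45 with replicates 1 to 3 only, and 94 to 399 higher and 7 to 48 lower on leaving out 1 epiblast. In the *Ezh2* cross 0 and 6 became 3 and 7 with the block, 20 and 8 without the filter, 153 and 25 with DESeq2, and 0 to 21 higher and 0 to 6 lower on leaving out 1 epiblast. DESeq2's size factors in edgeR left the member counts unchanged in both crosses.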
